A study of Homo sapiens with 12 samples.

Results

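CCRF-CEM is an established human leukemia line of T lymphoblasts. RNA of its parent form, which is wild-type and expresses SLFN11, was sequenced after 6 h in 100 nM prexasertib and after DMSO, the solvent, for which the labels give no time. The comparison held 3 libraries of the record group Parent_CHK1i6h and 3 of Parent_control, 6 of the 12 libraries of the series, chosen by their record groups. All genes were compared, and 23045 of the 44147 features listed in the files passed the filter on low counts. The other 6 libraries came from SLFN11-knockout CCRF-CEM cells given prexasertib or DMSO, and they served to estimate the spread between replicates and to test the difference between the lines. The labels say neither whether the knockout line is 1 clone nor whether replicates are separate cultures, and the p-values therefore reflect only the scatter among these libraries, technical scatter included.

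Prexasertib inhibits CHK1, the checkpoint kinase that ATR activates when replication forks stall. CHK1 holds back the CDC25 phosphatases and through them the cyclin-dependent kinases, so that origins fire sparingly and cells do not enter mitosis with unfinished DNA. SLFN11 is a nuclear protein recruited to stressed forks, and the title of the series poses the question of how it bears on chromatin and on immediate early genes, the genes that respond to a signal without new protein synthesis.

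The records and the file names disagree on the treatment. In all 12 records, the 6 parent records among them, the library name in the title (con or CHK1i6) belongs to a file that is attached to a record of the opposite treatment. Groups are therefore called labelled prexasertib and labelled DMSO, by the record that holds the file. Every log2 fold change is labelled prexasertib minus labelled DMSO. If the library names hold, each of these values keeps its size, error and p and takes the opposite sign, and "lower" below reads "higher". With the 2 labels exchanged in the same fit, the log2 fold changes under the 2 readings summed to 0 for every gene, and the call of 0 genes differed. This follows from the form of the fit and does not tell which reading holds.

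The 6 parent libraries held 47887791 to 72180494 exonic reads. Labelled prexasertib replicate 1 stood apart: of 15829 genes at 1 CPM (counts scaled to the library size) or more, 118 were at least 2-fold above both other libraries of its group, against 0 to 6 genes for each of the other 5 libraries. The chi-square per degree of freedom between this library and its 2 partners was 32.9 and 38.0, and 7.43 to 15.15 between the other pairs of a group. Introns took 27.5% ± 2.39 of gene reads with labelled prexasertib and 24.6% ± 0.862 with labelled DMSO (mean ± SD over n = 3 libraries). A two-sided exact permutation test gave p = 0.1, the lowest value this design can reach, and replicate 1 of labelled prexasertib had 30.3%. All 17 T lymphoblast markers, CD3D, LCK and TAL1 among them, were at 1 CPM or more in all 6 libraries. Their sum was 1819 to 1919 CPM with labelled DMSO and 2128 to 2221 CPM with labelled prexasertib. The 20 B-cell and myeloid markers summed to 29.0 to 31.6 CPM and 33.5 to 38.2 CPM, mostly CD79A, CD79B and BLK, with MS4A1 and EBF1 at 0. The 20 epithelial, fibroblast and erythroid markers summed to 3.87 to 5.13 CPM and 3.59 to 4.03 CPM. The part of these markers in the results was not tested. The mean level of SLFN11 RNA was 67.2 CPM (labelled DMSO) and 88.4 CPM (labelled prexasertib) in the knockout line, against 95.6 and 117 CPM in parent cells, and a gene-level count checks a knockout only where the edit removes counted sequence, which the labels do not state.

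Of the 23045 genes, 36.3% differed between the groups at an adjusted p of at most 0.05. Genes higher with labelled prexasertib numbered 4183 (18.2%), and genes lower numbered 4191 (18.2%). On the authors' TPM values, which are scaled to the sum over all genes, the split was 6364 higher and 2505 lower, and the median of all genes was 0.09 with a pseudocount of 1 and 0.16 with a pseudocount of 0.1, against 0.04 on counts. The lower genes moved further. A change of at least 2-fold was found for 772 lower genes (3.35%) and 259 higher genes (1.12%). Of the lower genes, 114 lay between 4-fold and 8-fold and 77 beyond 8-fold, against 26 and 1 of the higher genes. The median size of the change was 0.48 on the log2 scale for called genes that were lower and 0.36 for called genes that were higher. All 3 libraries of one group lay above all 3 of the other for 9987 genes (43.3%). Among 13566 protein-coding genes, 3274 were higher and 3301 lower. The plot of change against level shows the lower tail reaching well-expressed regulators, while high positive values lie at low levels.

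**Figure D1:**
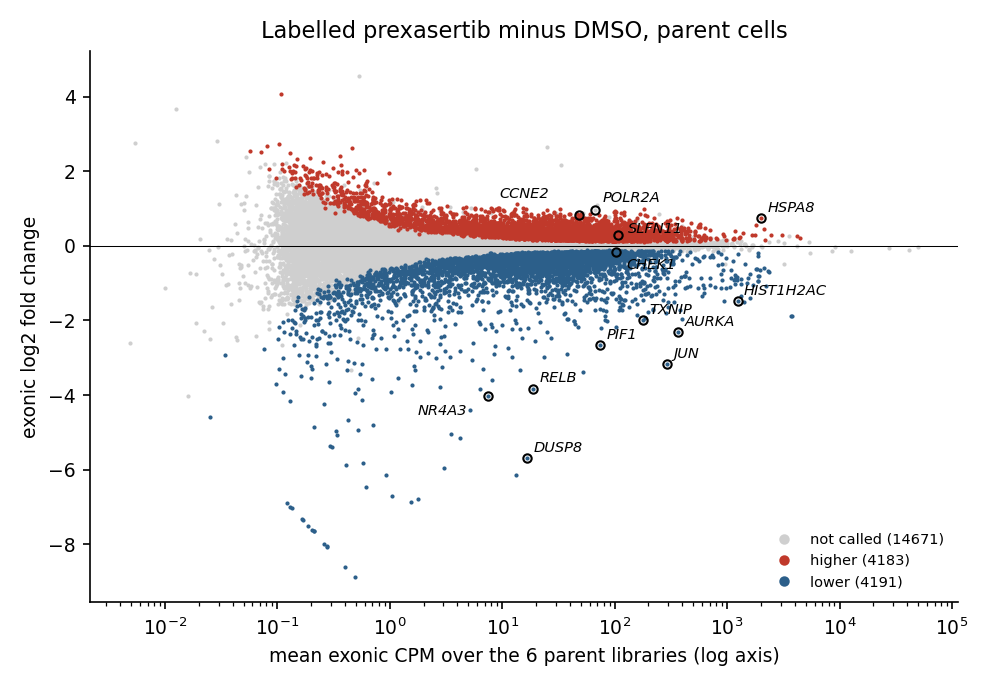
Exonic log2 fold change, labelled prexasertib minus labelled DMSO, of each of 23045 genes (vertical axis) against its mean exonic CPM over the 6 parent libraries (horizontal log axis), with 4183 genes called higher in red, 4191 called lower in blue and the rest in grey. Named genes such as DUSP8 at -5.69 and JUN at -3.17 mark the lower tail, and all signs turn if the library names hold.

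Signal-responsive regulators were among the genes with the deepest falls. DUSP8 (chr11:1575274-1593150, hg19) encodes a phosphatase that switches off the stress kinases JNK and p38. DUSP8 had 30.7, 35.2 and 32.3 CPM with labelled DMSO and 0.531, 0.617 and 0.763 CPM with labelled prexasertib. The groups lay far apart, and each labelled prexasertib library was below 1 CPM. The log2 fold change was -5.69 (SE 0.14, edgeR adjusted p = 2.7e-20). Of 16 MAP kinase phosphatase and Sprouty genes tested, which feed back on kinase cascades, 10 were lower and 1, DUSP7 at 0.65, was higher, with a median of -0.43 against 0.04 over all genes. On the log2(TPM + 1) scale 7 were lower and 2 higher, and the median was -0.06 against 0.09 over all genes. DUSP10, another phosphatase of stress kinases, differed by -2.98, DUSP4 by -2.41 and DUSP16 by -2.01. DUSP6, the phosphatase of ERK, was at 0.04 and did not pass.

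The promoter of DUSP8 is shown because this gene was the lowest of those that the naming rule took by fold change. The 180 bases upstream of the start, 5′ to 3′, come from RefSeq (GRCh38.p14, chr11:1572272-1572451, minus strand), with the cyclic AMP response element TGACGTCA, bound by the CREB, ATF and JUN families, in capitals. The element occurs 2 times, 118 and 74 bases before the start.
DUSP8: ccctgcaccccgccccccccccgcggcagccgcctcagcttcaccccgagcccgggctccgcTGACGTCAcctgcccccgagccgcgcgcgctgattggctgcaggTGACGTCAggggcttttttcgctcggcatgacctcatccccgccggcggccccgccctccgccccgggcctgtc
This element, on either strand, was found in 3.38% of the 300-base promoter windows of the 8076 tested genes that have 1 listed start, and in 6.63% of the 317 such windows of genes at least 2-fold lower. A match is a description of the letters, not a bound site.

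AP-1 is a dimer of FOS, JUN and ATF family proteins that drives early transcription after stress or growth signals. JUN had 509, 546 and 536 CPM with labelled DMSO and 57.0, 58.5 and 61.7 CPM with labelled prexasertib. The groups differed about as much in every pair of libraries, with a log2 fold change of -3.17 (SE 0.06, edgeR adjusted p = 2.9e-22). ATF3 had 95.8, 92.1 and 98.2 CPM with labelled DMSO and 8.29, 10.1 and 8.93 CPM with labelled prexasertib. ATF3, induced by many stresses, was the most significant gene after JUN among the AP-1 members, at -3.39 (SE 0.07, edgeR adjusted p = 9.1e-22). FOS differed by -2.97, JUND by -1.75 and the repressor-activator gene CREM by -1.53. JUNB was at -1.97, but 0% of its exonic reads lay outside other genes. Of 18 AP-1 and small MAF genes tested, 12 were lower (9 of them at least 2-fold) and 3 were higher, MAFK, MAFG and BATF3 at 0.35 to 0.51. Their median was -1.05, and -0.39 on the log2(TPM + 1) scale.

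The EGR, NR4A, KLF and IER families are the other classic early transcription regulators. Of 20 tested, 16 were lower, 14 of them at least 2-fold, and the median was -1.61 (-0.67 on the log2(TPM + 1) scale). The groups did not overlap for 17 of the 20, against 43.3% of all genes tested. NR4A3 had 14.3, 14.6 and 13.6 CPM with labelled DMSO and 1.28, 0.633 and 0.636 CPM with labelled prexasertib. NR4A3, an orphan nuclear receptor induced by antigen receptor signals, differed by -4.04 (SE 0.17, edgeR adjusted p = 1.6e-15), and labelled prexasertib replicate 1 was above its partners. NR4A1 was at -2.54 and EGR1 at -2.68. KLF6 had 75.5, 79.6 and 75.6 CPM with labelled DMSO and 18.4, 16.1 and 16.4 CPM with labelled prexasertib. KLF6, a zinc finger factor, differed by -2.18 without overlap. The 2 higher members were KLF13 (0.81), a regulator of chemokine genes in T cells, and KLF2 (0.54), a factor of T-cell quiescence that was near 1 CPM. Among ZFP36 and other mRNA decay genes, which shorten the life of early mRNAs, 12 of 21 were lower and 3 higher (8 and 5 on the log2(TPM + 1) scale), with ZFP36 at -1.27 and the deadenylation gene BTG2 at -2.31.

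**Figure D2:**
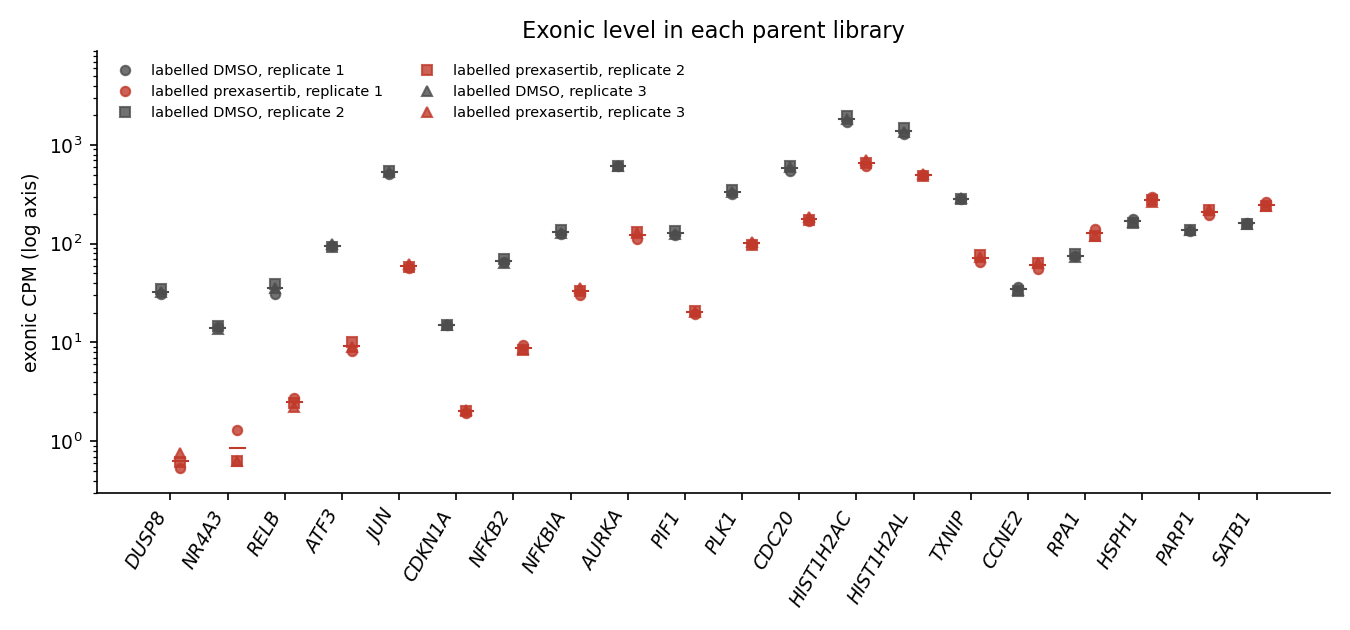
Exonic CPM (vertical log axis) of 20 genes in each of the 6 parent libraries, with grey symbols for labelled DMSO, red symbols for labelled prexasertib, symbol shapes for replicates 1 to 3 and a short line at each mean. The first 15 genes, DUSP8 to TXNIP, are lower with labelled prexasertib and the last 5, CCNE2 to SATB1, are higher. The groups do not overlap for any of these 20 chosen genes, and 43.3% of all genes tested had no overlap.

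NF-kappaB genes fell together. NF-kappaB dimers sit in the cytoplasm bound to inhibitors until a kinase complex releases them, and they then induce their own inhibitors and subunits. Of 28 tested, 23 were lower, 1 was higher and 4 did not pass, and the median was -0.68 (-0.38 on the log2(TPM + 1) scale, with 17 lower and 2 higher). Among the subunits, RELB had 30.7, 39.5 and 35.7 CPM with labelled DMSO and 2.76, 2.47 and 2.21 CPM with labelled prexasertib. The log2 fold change was -3.83 (SE 0.12, edgeR adjusted p = 1.7e-17). NFKB2 had 65.8, 70.2 and 63.1 CPM with labelled DMSO and 9.40, 8.41 and 8.61 CPM with labelled prexasertib. NFKB2, the RELB partner of the noncanonical pathway, differed by -2.91 (SE 0.08, edgeR adjusted p = 9.0e-20). REL was at -0.93, NFKB1 at -0.74 and RELA at -0.29. For both RELB and NFKB2 the highest labelled prexasertib library was far below the lowest labelled DMSO library. Among the inhibitors, NFKBIA had 126, 138 and 128 CPM with labelled DMSO and 30.3, 33.4 and 35.6 CPM with labelled prexasertib. NFKBIA, the first inhibitor gene to respond, differed by -1.98 (SE 0.06, edgeR adjusted p = 3.4e-19). NFKBIZ was at -1.65, TNFAIP3, a ubiquitin-editing brake on the pathway, at -1.15, and the coactivator gene BCL3 at -3.01. The kinase complex genes CHUK, IKBKB, IKBKG and IKBKE lay between -0.09 and 0.13 and did not pass. TRAF3, which restrains the noncanonical pathway, was the 1 higher member at 0.41.

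Reads in introns come mostly from RNA that is not yet spliced. Of 19852 genes with enough intronic reads, 15.22% were higher and 15.62% lower with labelled prexasertib. Among the NF-kappaB genes, intronic reads were lower for 19 of 28 and higher for 1, with a median of -0.51. The intronic change was -3.66 for RELB, -2.99 for NFKB2 and -1.99 for NFKBIA, each within 0.2 of the exonic one. The promoter of NFKBIA is shown for its kappaB motif, in capitals, 81 bases before the start (RefSeq, GRCh38.p14, chr14:35404750-35404929, minus strand).
NFKBIA: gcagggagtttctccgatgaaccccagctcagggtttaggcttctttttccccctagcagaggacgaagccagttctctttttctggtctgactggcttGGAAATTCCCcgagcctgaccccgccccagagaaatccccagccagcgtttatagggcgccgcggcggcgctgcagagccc
A kappaB motif on either strand was found in 12.4% of all 8076 windows and in 6 of 12 windows of NF-kappaB genes.

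Among secreted signals more genes were lower than higher. Of 21 cytokine and chemokine genes tested, 10 were lower and 3 higher. IL8 had 10.3, 9.21 and 9.92 CPM with labelled DMSO and 0.651, 0.487 and 0.212 CPM with labelled prexasertib. IL8 (CXCL8), the neutrophil chemokine, differed by -4.40 (SE 0.25, edgeR adjusted p = 2.1e-11). CXCL3 was at -2.10 and TNF at -1.27, and the higher members were IL16, VEGFA and TGFB1 at 0.19 to 0.45. Of 25 TNF ligand and receptor genes, 7 were lower and 4 higher, with 7 each on the log2(TPM + 1) scale. TNFSF9 was at -2.23 and the death receptor gene FAS at -0.83. Other genes of the lower tail, outside the lists, were the G protein regulator gene RGS16 at -3.32, the protease genes PLAU at -3.61 and ADAM8 at -3.29, and the small GTPase gene GEM at -3.83. Only 3% of the PLAU exonic reads lay outside other genes.

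Single genes of growth arrest and cell death, named after their values were seen, are given without a count over their group. CDKN1A encodes an inhibitor of cyclin-dependent kinases. CDKN1A had 14.96, 15.19 and 14.97 CPM with labelled DMSO and 1.95, 2.04 and 2.06 CPM with labelled prexasertib. The groups did not overlap and the change was -2.90 (SE 0.10, edgeR adjusted p = 3.0e-18). BBC3, a proapoptotic BH3-only gene, was at -2.88 and BTG2, an antiproliferative gene, at -2.31. ZMAT3, a zinc finger gene, was higher at 0.75, and so were the nuclease gene AEN (0.34) and the proapoptotic gene BAX (0.31). In the BCL2 and caspase list, 13 of 30 were lower and 7 higher, with 10 each on the log2(TPM + 1) scale. The survival genes MCL1 (-1.07) and BIRC5 (-1.21) and the killer gene PMAIP1 (-1.20) were among the lower ones, and BID, at 0.42, among the higher ones.

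Genes of the mitotic spindle and of mitotic entry were mostly lower. Their transcription peaks in G2 and is controlled by the CCAAT-binding factor NF-Y and by the MuvB complex at CHR elements. In bulk RNA, fewer cells in G2 and M and less of these RNAs per cell cannot be told apart. Of 39 genes in the kinesin and spindle list, 38 were lower, 24 of them at least 2-fold, and the median was -1.07. The list, drawn up with earlier results of these data known, also holds PIF1. Only KIF2A, a microtubule-depolymerising kinesin that also acts outside mitosis, was higher, at 0.20. The groups did not overlap for any of the 39, and 43.3% of all genes tested had no overlap. PIF1 had 123, 133 and 126 CPM with labelled DMSO and 19.2, 21.0 and 20.4 CPM with labelled prexasertib. PIF1, a DNA helicase whose RNA peaks in G2, differed by -2.66 (SE 0.06, edgeR adjusted p = 3.1e-21). KIF20A and KIF18A, motors of cytokinesis and of chromosome alignment, were at -1.80 and -1.72. Intronic reads were lower for 38 of the 39, with a median of -0.98.

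Entry into mitosis is driven by CDK1 with cyclin B, which CDC25 phosphatases activate and WEE1 restrains, and by the Aurora and polo-like kinases. Of 32 such genes, 27 were lower and 2 were higher, MYBL2 (0.34) and ARPP19 (0.15). AURKA had 615, 608 and 619.5 CPM with labelled DMSO and 111, 131 and 129 CPM with labelled prexasertib. AURKA, which matures centrosomes, differed by -2.31 (SE 0.06, edgeR adjusted p = 1.6e-20), and its activator gene BORA by -1.87. PLK1 had 322, 348 and 331 CPM with labelled DMSO and 100, 97.5 and 105 CPM with labelled prexasertib. PLK1 differed by -1.73 (SE 0.05, edgeR adjusted p = 1.0e-18). Neither kinase gene had overlapping groups. CDC25C was at -2.10, CCNB1 at -1.13, CDK1 at -0.74 and the inhibitor kinase gene WEE1 at -0.74. CDC25A, the phosphatase that CHK1 marks for degradation, was at -0.13 and did not pass, and FOXM1, the factor that drives many of these genes, was at -0.25.

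At the kinetochore, 29 of 41 genes were lower and 0 were higher, against 21 and 3 on the log2(TPM + 1) scale, where the median went from -0.33 to -0.16. CENPE had 669, 607 and 633 CPM with labelled DMSO and 156, 167 and 169 CPM with labelled prexasertib. CENPE, the kinetochore motor, differed by -1.96 (SE 0.05, edgeR adjusted p = 9.0e-20). HJURP had 334, 341 and 339.5 CPM with labelled DMSO and 103, 105 and 105 CPM with labelled prexasertib. HJURP, the chaperone that loads the centromeric histone, differed by -1.70 (SE 0.05, edgeR adjusted p = 9.0e-20), and both genes separated the groups fully. The 12 members that did not pass included ZWILCH, KNTC1 and SPC24. Of 36 genes of the anaphase-promoting complex, cohesin and condensin, 18 were lower and 6 higher, with a median of -0.14, which was 0.01 on the log2(TPM + 1) scale. CDC20 had 548, 612 and 594 CPM with labelled DMSO and 169.5, 176 and 188 CPM with labelled prexasertib. CDC20, the mitotic activator of the complex, differed by -1.72 (SE 0.05, edgeR adjusted p = 1.3e-18), and the ubiquitin-conjugating enzyme gene UBE2C by -1.52. The higher members included the core complex gene ANAPC5 and the cohesin gene SMC1A, at 0.33 and 0.19.

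Promoters of 3 of these genes are shown with CCAAT boxes (CCAAT or ATTGG) and CHR elements (TTTGAA or TTCAAA) in capitals, 180 bases upstream of the start, from RefSeq (GRCh38.p14). PIF1 lies at chr15:64825648-64825827, minus strand, PLK1 at chr16:23678709-23678888, plus strand and CDC20 at chr1:43358801-43358980, plus strand.
PIF1: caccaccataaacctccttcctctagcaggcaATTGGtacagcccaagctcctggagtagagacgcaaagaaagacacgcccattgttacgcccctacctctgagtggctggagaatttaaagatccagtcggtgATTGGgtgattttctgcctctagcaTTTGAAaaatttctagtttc
PLK1: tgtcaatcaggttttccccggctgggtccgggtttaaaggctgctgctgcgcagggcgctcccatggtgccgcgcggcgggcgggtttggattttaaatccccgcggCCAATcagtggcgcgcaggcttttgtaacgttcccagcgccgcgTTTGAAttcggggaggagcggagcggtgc
CDC20: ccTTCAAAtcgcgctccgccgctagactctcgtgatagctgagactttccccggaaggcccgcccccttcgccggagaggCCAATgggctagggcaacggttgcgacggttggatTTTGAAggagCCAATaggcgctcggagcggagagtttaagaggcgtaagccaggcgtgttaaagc
In each of the 3 a CHR element lies nearest to the start or next to a CCAAT box: 20 bases before the start in PIF1, with CCAAT boxes at 45 and 148, 29 bases in PLK1, with one at 73, and 65 bases in CDC20, with boxes at 55 and 100. A CHR element was found in 10.3% of all 8076 windows, in 23.0% of the windows of genes at least 2-fold lower and in 72.7% of the 33 windows of kinesin and spindle genes. A CCAAT box was found in 38.0%, 53.9% and 72.7% of the same windows. Among kinetochore genes, 44.8% of 29 windows held a CHR element.

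Replication-dependent histone genes are transcribed in S phase, mostly without introns, and end in a stem-loop in place of a poly(A) tail. Of 57 tested, 55 were lower, 22 of them at least 2-fold, and 0 higher, with a median of -0.88. HIST1H1E, a linker histone gene, at 0.02, and HIST3H2BB, at -0.67, did not pass. HIST1H2AC had 1721, 1949 and 1838 CPM with labelled DMSO and 607, 664 and 697 CPM with labelled prexasertib. HIST1H2AC, a core histone H2A gene, differed by -1.49 (SE 0.06, edgeR adjusted p = 1.3e-16). HIST1H2AL had 1299, 1487 and 1367 CPM with labelled DMSO and 496, 484 and 513 CPM with labelled prexasertib. HIST1H2AL differed by -1.48 (SE 0.06, edgeR adjusted p = 1.7e-16), and in both genes the 2 groups were far apart. HIST2H2AA3 and HIST2H2AA4, at -1.89 and -1.87, are near-identical copies, and these and other histone genes that share reads are uncertain one by one. All 11 histone genes with enough intronic reads were lower there too. SLBP, which binds the stem-loop, was higher at 0.50. The promoter of HIST1H2AC (RefSeq, GRCh38.p14, chr6:26123992-26124171, plus strand) is shown for its TATA box (TATAAA), 31 bases before the start, and 3 CCAAT boxes, at 68, 98 and 172.
HIST1H2AC: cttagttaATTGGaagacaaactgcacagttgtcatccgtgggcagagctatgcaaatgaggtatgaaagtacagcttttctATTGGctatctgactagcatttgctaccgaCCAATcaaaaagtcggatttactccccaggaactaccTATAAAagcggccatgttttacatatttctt
A TATA box in this spelling was found in 6.44% of all 8076 windows and in 65.9% of 44 histone windows, and a CCAAT box in 84.1% of the latter.

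E2F, G1/S and replication fork genes, unlike the histone genes of S phase, were more often higher than lower. E2F factors drive cyclin E and the replication machinery. Of 31 E2F and G1/S genes, 17 were higher and 4 lower, with a median of 0.21. CCNE2 had 36.4, 33.4 and 33.8 CPM with labelled DMSO and 55.8, 64.1 and 63.4 CPM with labelled prexasertib. CCNE2, a cyclin E gene, differed by 0.82 (SE 0.06, edgeR adjusted p = 5.3e-11), and replicate 1 was the lowest of its group. RRM2, a subunit of ribonucleotide reductase, was at 0.53 and the ubiquitin ligase gene SKP2 at 0.51. The lower members were E2F8 (-1.26), a repressor that ends the E2F wave, CKS2 (-1.10), E2F2 (-0.25) and CCND2, below 1 CPM. Of 47 replication origin and fork genes, 22 were higher and 7 lower. RPA1 had 74.9, 78.3 and 73.2 CPM with labelled DMSO and 141, 120.0 and 121 CPM with labelled prexasertib. RPA1, the large subunit of the single-stranded DNA binding complex, differed by 0.75 (SE 0.06, edgeR adjusted p = 3.9e-11). TIMELESS, a fork protection gene, was at 0.44 and the licensing factor gene CDT1 at 0.28. DBF4, the activator of the CDC7 kinase that fires origins, was at -0.80 and the licensing inhibitor gene GMNN at -0.39. An E2F motif (TTTCCCGC or TTTGGCGC, either strand) was found in 42.4% of 33 origin and fork windows and in 3.70% of all 8076.

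Checkpoint genes changed by less than 2-fold. CHEK1, the gene of the kinase that prexasertib inhibits, had 112, 106 and 108 CPM with labelled DMSO and 93.1, 99.0 and 98.2 CPM with labelled prexasertib. The groups did not overlap, and the change was small, at -0.16 (SE 0.05, edgeR adjusted p = 0.013), a call that was lost on the log2(TPM + 1) scale. Of 30 checkpoint and DNA damage genes, 9 were higher and 10 lower, and on the log2(TPM + 1) scale 12 were higher and 5 lower. PARP1 had 135, 138 and 137 CPM with labelled DMSO and 196, 219 and 219.8 CPM with labelled prexasertib. PARP1, the sensor of DNA strand breaks, differed by 0.63 (SE 0.05, edgeR adjusted p = 1.5e-10), and the DNA-PK gene PRKDC by 0.52. MDC1, a scaffold at breaks, was at -0.60, H2AFX at -0.49 and CHEK2 at -0.46. SLFN11 had 100, 91.2 and 95.2 CPM with labelled DMSO and 116, 119 and 117 CPM with labelled prexasertib. SLFN11 (chr17:33677324-33700720, hg19) differed by 0.30 (SE 0.05, edgeR adjusted p = 3.0e-05). Of 39 homologous recombination and Fanconi genes, 10 were higher and 12 lower, with 17 and 7 on the log2(TPM + 1) scale and 12 each without labelled prexasertib replicate 1, and none changed by 2-fold. BRCA2, at -0.65, BRCA1, at -0.15, and its partner gene BARD1, at -0.56, were lower, and FANCC was higher at 0.47.

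**Figure D3:**
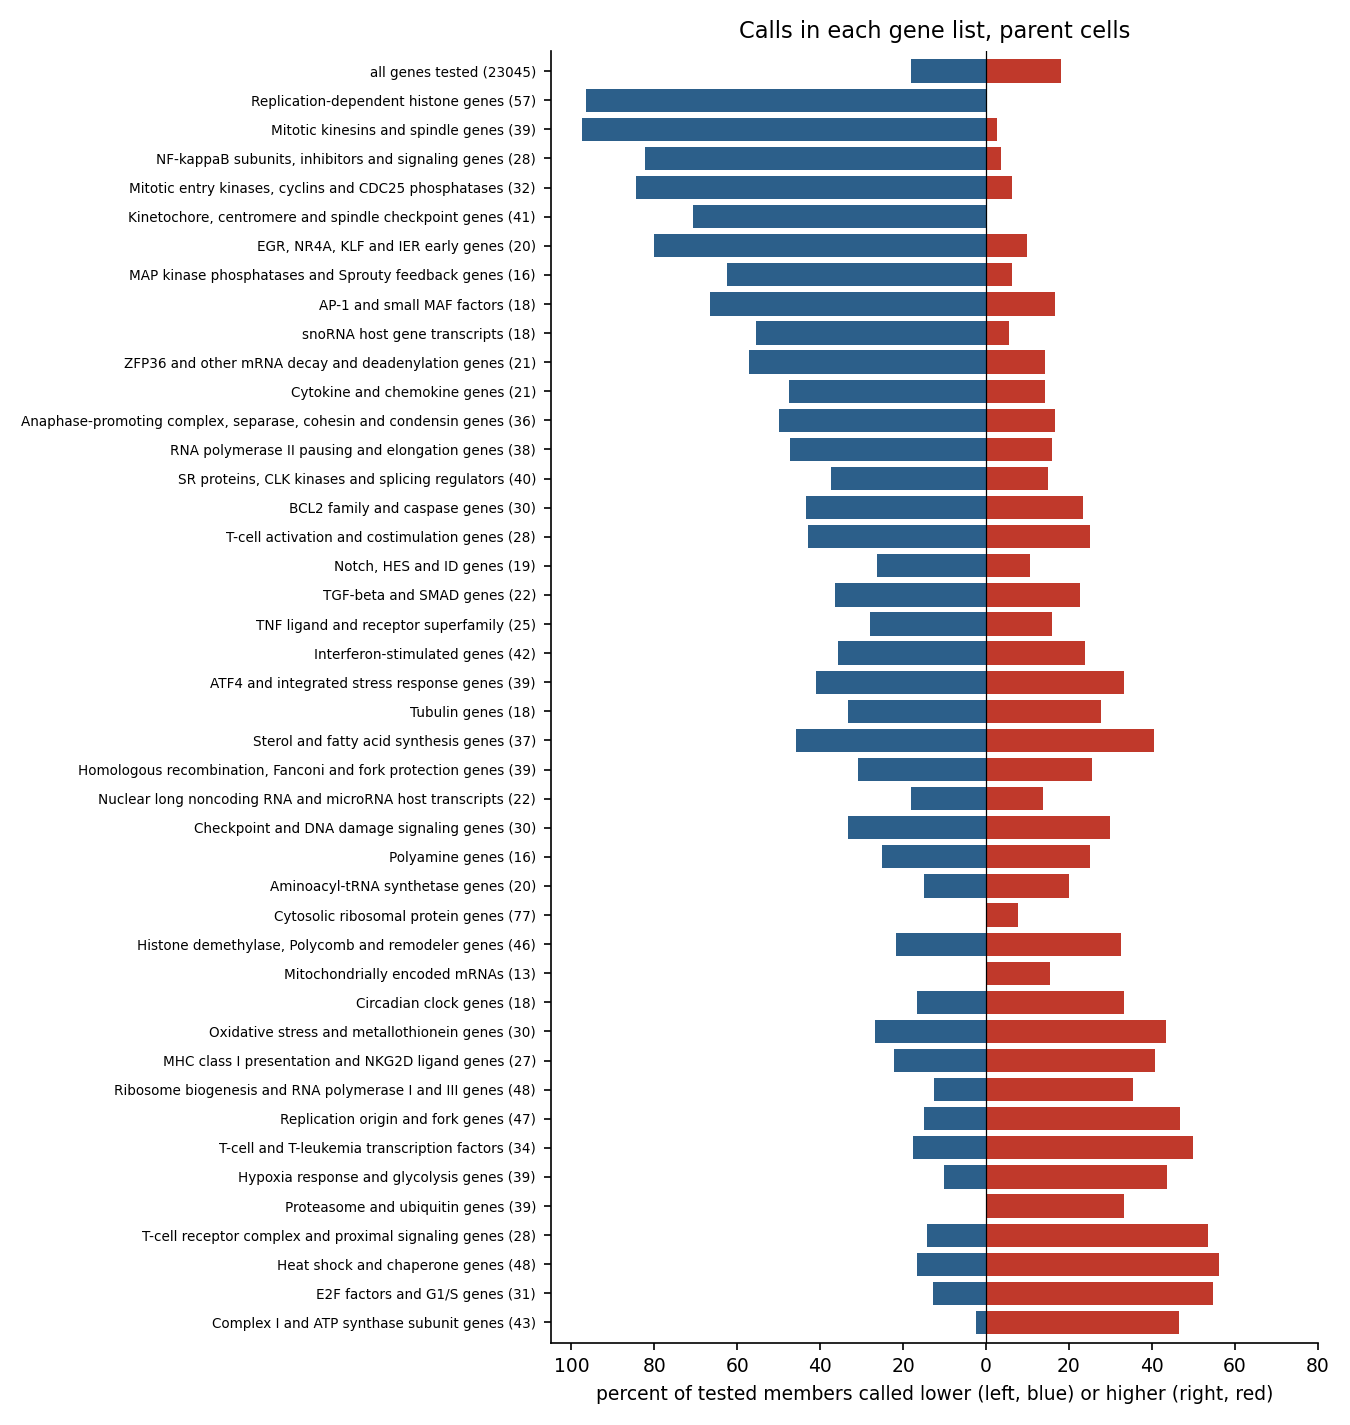
Percent of the tested members of each gene list shown that were called lower (bars to the left, blue) or higher (bars to the right, red) with labelled prexasertib, with the number tested in brackets and all 23045 genes (18.2% each way) at the top. Below it lists run from the most lower to the most higher, with histone and mitotic lists first, while the balance of the ATF4, sterol, checkpoint, recombination, interferon, T-cell activation, TNF, BCL2, tubulin, polyamine and noncoding RNA lists turns or levels on the log2(TPM + 1) scale.

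Chaperone genes were mostly higher. Heat shock factors induce them when unfolded proteins accumulate. Of 48 tested, 27 were higher and 8 lower, with a median of 0.24. HSPH1 had 177, 161 and 167 CPM with labelled DMSO and 300, 275 and 267 CPM with labelled prexasertib. HSPH1, a nucleotide exchange factor, differed by 0.74 (SE 0.05, edgeR adjusted p = 1.6e-11). HSPA8 had 1516, 1497 and 1537 CPM with labelled DMSO and 2268, 2688 and 2626 CPM with labelled prexasertib. HSPA8, the constitutive HSP70, differed by 0.74, while its intronic reads were at -0.17. The groups did not overlap for either gene. DNAJB1, a co-chaperone, was at 0.70 and HSP90AA1 at 0.55, and DNAJB2, at -1.34, was the lowest member. HSPA1A, at 0.71, shares sequence with HSPA1B and is uncertain. HSPA5, the chaperone of the endoplasmic reticulum, had 306, 200 and 214 CPM with labelled prexasertib, so that its change of 0.98 was 0.74 without replicate 1.

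Stress and metabolic lists were divided. Of 39 genes of the ATF4 and integrated stress response, which halts translation and induces amino acid genes, 13 were higher and 16 lower, with 13 and 12 on the log2(TPM + 1) scale. DDIT3, at -1.45, and CHAC1, at -1.65, were lower, and SEL1L, of protein disposal from the endoplasmic reticulum, was higher at 0.68. Of 30 oxidative stress genes, 13 were higher and 8 lower. TXNIP had 286, 282 and 290.1 CPM with labelled DMSO and 65.5, 76.7 and 72.9 CPM with labelled prexasertib. TXNIP, an arrestin-like inhibitor of thioredoxin and glucose uptake, differed by -2.00 (SE 0.06, edgeR adjusted p = 1.1e-19) with no overlap, and its relative ARRDC3 by -1.45. Of 37 sterol and fatty acid genes, 15 were higher and 17 lower, with 17 and 13 on the log2(TPM + 1) scale. HMGCS1, an enzyme gene of sterol synthesis and a target of SREBP, was at -0.75. Of 39 hypoxia and glycolysis genes, 17 were higher and 4 lower (26 and 1 on the log2(TPM + 1) scale), with the hexokinase gene HK2 at 0.64 and the glucose transporter gene SLC2A1 at 0.51.

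Genes of the respiratory chain, proteasome and ribosome had small changes, and their counts moved with the scaling and with labelled prexasertib replicate 1. Of 43 complex I and ATP synthase genes, 20 were higher and 1 was lower, with called values from -0.19 to 0.47, but only 1% of the NDUFC2 exonic reads lay outside other genes. The counts of this list were 36 and 0 on the log2(TPM + 1) scale. Of 39 proteasome and ubiquitin genes, 13 rose, 0 fell and 26 did not pass, with PSMB2 at 0.51 and VCP, the segregase, at 0.36. Here 27 were higher and 0 lower on the log2(TPM + 1) scale, and 19 and 3 without replicate 1. In ribosome biogenesis, 17 of 48 genes rose and 6 fell (27 and 5 on the log2(TPM + 1) scale), with the polymerase I gene POLR1B at 0.43. Of 77 cytosolic ribosomal protein genes, 6 were higher and 0 lower. Without replicate 1 the count of higher ones was 20, and on the log2(TPM + 1) scale it was 47, with a median of 0.16 against 0.09 over all genes. Of 20 aminoacyl-tRNA synthetase genes, 4 were higher and 3 lower, among them WARS (0.44) and CARS (-0.48). Their counts were 7 and 4 without replicate 1, 11 and 2 on the log2(TPM + 1) scale and 3 each with RLE factors.

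T-cell genes were read in 3 lists. Of 28 activation and costimulation genes, 12 were lower and 7 higher, with 8 and 9 on the log2(TPM + 1) scale. CD69 had 169, 164 and 171 CPM with labelled DMSO and 48.4, 57.1 and 54.9 CPM with labelled prexasertib. CD69, the early activation antigen, differed by -1.65 (SE 0.06, edgeR adjusted p = 8.0e-18). PDCD1 had 8.84, 11.1 and 8.68 CPM with labelled DMSO and 1.17, 1.12 and 1.15 CPM with labelled prexasertib. PDCD1 encodes the inhibitory receptor PD-1 and differed by -3.06 (SE 0.15, edgeR adjusted p = 7.4e-15). Both genes separated the groups. ICAM1, an adhesion ligand, was at -2.24, and the homing receptor gene CCR7 was higher at 0.70. Of 28 genes of the receptor complex and its proximal signaling, 15 rose and 4 fell. CD3D was at 0.18 and CD2 at 0.58, and PTPN22 (-0.66), VAV1 (-0.31) and LAT (-0.25) were among the lower ones. Of 34 T-cell and T-leukemia transcription factor genes, 17 were higher and 6 lower. NKX2-5, a homeobox gene of T-cell leukemia, was at 0.62, TCF7 at 0.54 and BCL11B at 0.51, while TAL1 (-0.50), LMO2 (-0.72) and FOXO1 (-1.28) were lower. SATB1 had 162, 160.0 and 160.2 CPM with labelled DMSO and 262, 239 and 240.5 CPM with labelled prexasertib. SATB1, a chromatin organiser of thymocytes, differed by 0.62 (SE 0.05, edgeR adjusted p = 9.3e-11), but 0% of its exonic reads lay outside other genes.

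HEXIM1 and MEPCE are parts of the 7SK complex, which holds the elongation kinase P-TEFb inactive. MEPCE had 153, 164 and 168 CPM with labelled DMSO and 52.4, 63.4 and 66.7 CPM with labelled prexasertib. HEXIM1 had 45.4, 47.2 and 46.0 CPM with labelled DMSO and 20.9, 20.3 and 20.4 CPM with labelled prexasertib. Both were lower without overlap, at -1.41 (SE 0.07, edgeR adjusted p = 9.8e-15) and -1.17 (SE 0.06, edgeR adjusted p = 1.1e-14). Of 38 pausing and elongation genes, 18 were lower and 6 higher, with 11 and 9 on the log2(TPM + 1) scale. BRD2 was at -0.76, and SUPT16H, a histone chaperone subunit, was higher at 0.61. POLR2A, the large subunit of RNA polymerase II, had 196, 30.8 and 36.6 CPM with labelled prexasertib and 45.6, 44.4 and 45.1 CPM with labelled DMSO, so that 1 library set its value of 0.97 (edgeR adjusted p = 0.29), which was -0.45 without that library (edgeR adjusted p = 0.11). Of 40 splicing regulators, 15 were lower and 6 higher, with 11 and 10 on the log2(TPM + 1) scale. RBM5 was at -0.70 and SRSF5 at -0.60. SRSF1 had 390.3, 375 and 382 CPM with labelled DMSO and 509, 614 and 620.1 CPM with labelled prexasertib. SRSF1, the founding SR protein, differed by 0.60 (SE 0.06, edgeR adjusted p = 6.7e-09), whereas its intronic reads were lower, at -0.55.

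Transcripts that host small nucleolar RNAs in their introns were lower for 10 of 18 and higher for 1 (DANCR, 0.34), with a median of -0.32. ZFAS1 had 168, 158 and 170.3 CPM with labelled DMSO and 81.3, 87.2 and 84.0 CPM with labelled prexasertib. ZFAS1 differed by -0.97 (SE 0.05, edgeR adjusted p = 3.6e-14), with no overlap, and its intronic reads by -0.10. SNHG1 was at -0.87 in exons and -0.05 in introns. Intronic reads of the 17 hosts with enough of them had a median of -0.05, with 3 lower and 1 higher. The spliced transcripts of many of these hosts are known to be destroyed by nonsense-mediated decay, while the introns yield the stable snoRNAs.

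Genes higher by at least 2-fold were mostly low. Their median level was -1.17 on the log2 CPM scale, 53 of 259 were protein-coding by RefSeq, and 38 reached 1 CPM. Without labelled prexasertib replicate 1, 110 of the 259 were still called and 74 still reached 2-fold, against 721 and 679 of the 772 lower genes. PRR12 had 31.7, 10.8 and 12.8 CPM with labelled prexasertib and 7.78, 9.18 and 8.31 CPM with labelled DMSO. Its value of 1.13 (edgeR adjusted p = 0.047) was 0.45 without replicate 1, and the call was lost when any labelled DMSO library was left out (edgeR adjusted p from 0.111 to 0.145). CELSR2, a cadherin gene, likewise went from 1.03 to 0.49. Other genes changed less without it: MIR210HG, the host of a hypoxia-induced microRNA, was at 1.06 and 0.98 without the library, ABHD17C at 1.00 and 0.90, LRFN1 at 1.05 and 0.87, and PLXND1, a semaphorin receptor, at 1.02 and 0.77. FASN, the fatty acid synthase gene, had 236, 115 and 122 CPM with labelled prexasertib, and its 0.91 fell to 0.47. Over the 118 genes that were high in replicate 1 alone, the median log2 fold change was 0.52 with this library and -0.14 without it, and their median exon length was 5351.5 bases against 3728.0 for all genes at 1 CPM or more.

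Most strongly lower genes were lower in introns as well. Of the 576 genes at least 2-fold lower with an intronic test, 454 were lower in introns, 1 was higher and 121 did not pass, and the medians were -1.39 in exons and -1.15 in introns. Of 124 genes at least 2-fold higher, 52 were higher in introns and 3 lower. Over all called genes the shares were smaller: 45.8% of 3680 higher genes and 45.4% of 3747 lower genes had the same intronic call. The difference between the exonic and the intronic change was tested in 17090 genes, and 1433 (8.39%) were above 0 and 1841 (10.8%) below. Among the 576 genes at least 2-fold lower in exons it was above 0 for 29 and below 0 for 173. These genes were chosen by their exonic change, which favors differences below 0. The splits over all genes depended on scaling. With the library sizes of the exonic counts, intronic reads were higher for 5626 and lower for 1604 genes (median 0.20 against -0.01). The difference was then above 0 for 308 and below for 4012 genes (median -0.21 against 0.03).

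**Figure D4:**
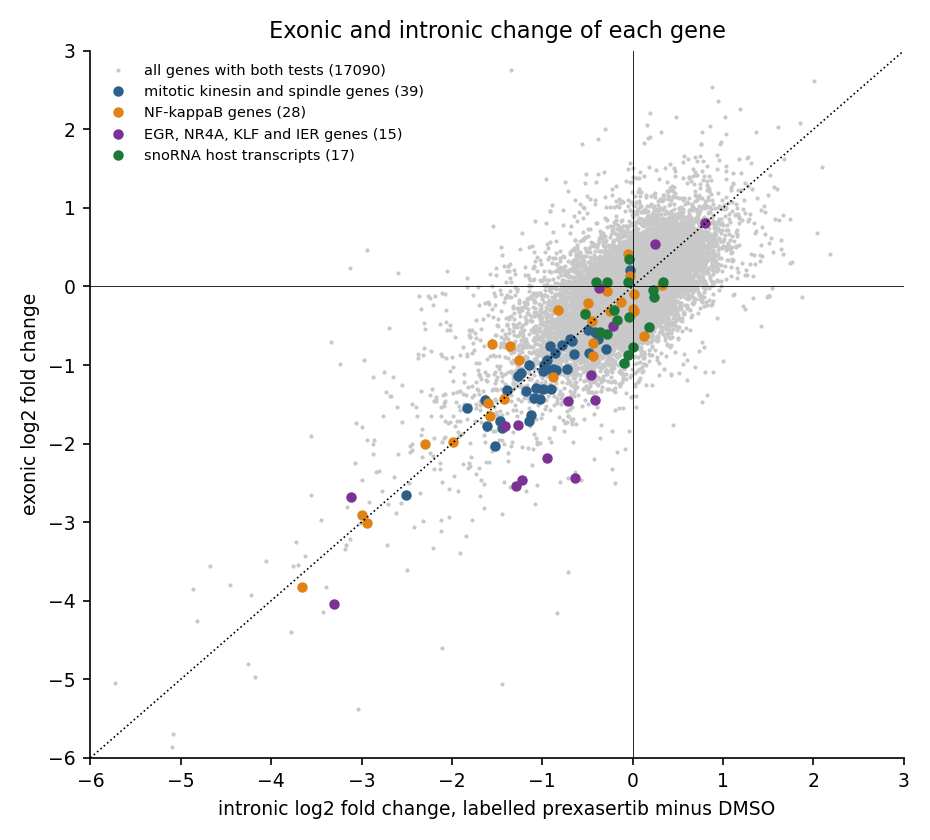
Exonic (vertical) against intronic (horizontal) log2 fold change of 17090 genes, labelled prexasertib minus labelled DMSO, with 4 gene lists in color and a dotted line where both changes are equal (11 genes lie outside the axes). Most kinesin and NF-kappaB genes lie along the line, 11 of 15 EGR, NR4A, KLF and IER genes lie below it, and snoRNA hosts lie near 0 on the intronic axis.

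Single genes departed from that line in both directions. TUBA4A, a tubulin gene, had 9.28, 10.7 and 11.3 intronic CPM with labelled DMSO and 1.52, 2.61 and 2.54 with labelled prexasertib. Its intronic change of -2.24 met an exonic one of -0.15, a difference of 2.12 (edgeR adjusted p = 1.3e-07). ZFAND2B, which binds the proteasome, had 57.5, 62.7 and 63.3 intronic CPM with labelled DMSO and 9.42, 13.4 and 14.7 with labelled prexasertib, with a difference of 1.80. In both genes the intronic groups did not overlap. MXD1, the partner of MAX that opposes MYC, was the reverse case: its introns had 103, 103 and 103 CPM with labelled DMSO and 98.3, 103 and 102 CPM with labelled prexasertib, while its exons differed by -1.41 and the difference was -1.37. ATF3, CDKN1A and NR4A2 also fell more in exons than in introns, with differences of -1.45, -1.43 and -1.76. ACSBG1, BEST1 and ZNF286A were above 0 as well (1.95, 1.71 and 1.61), but few of the exonic reads of ACSBG1 and BEST1 lay outside other genes (3% and 0%). With such reads alone the difference of BEST1 was -0.27 and did not pass.

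Intronic change rose with gene length. Among protein-coding genes under 5 kb, 2.2% of 774 had more intronic reads with labelled prexasertib, and among those of 500 kb or more 47.9% of 144 did. The median intronic change went from -0.09 to 0.25 over these classes. The share of genes called lower in exons was 22.9% under 5 kb, highest at 28.4% at 20 to 50 kb, and 6.94% at 500 kb or more. The longest class also had a lower median level, 2.68 on the log2 CPM scale against 4.765 at 20 to 50 kb. The part of level in these shares was not tested. Without labelled prexasertib replicate 1 the shares called higher in introns ran from 4.85% to 42.4% and the intronic medians from 0.01 to 0.17. With the library sizes of the exonic counts they ran from 9.69% to 59.0% and from 0.12 to 0.46. In both fits the median of the shortest class turned sign. The higher intronic share of the labelled prexasertib libraries moves with this pattern, and its part was not tested.

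**Figure D5:**
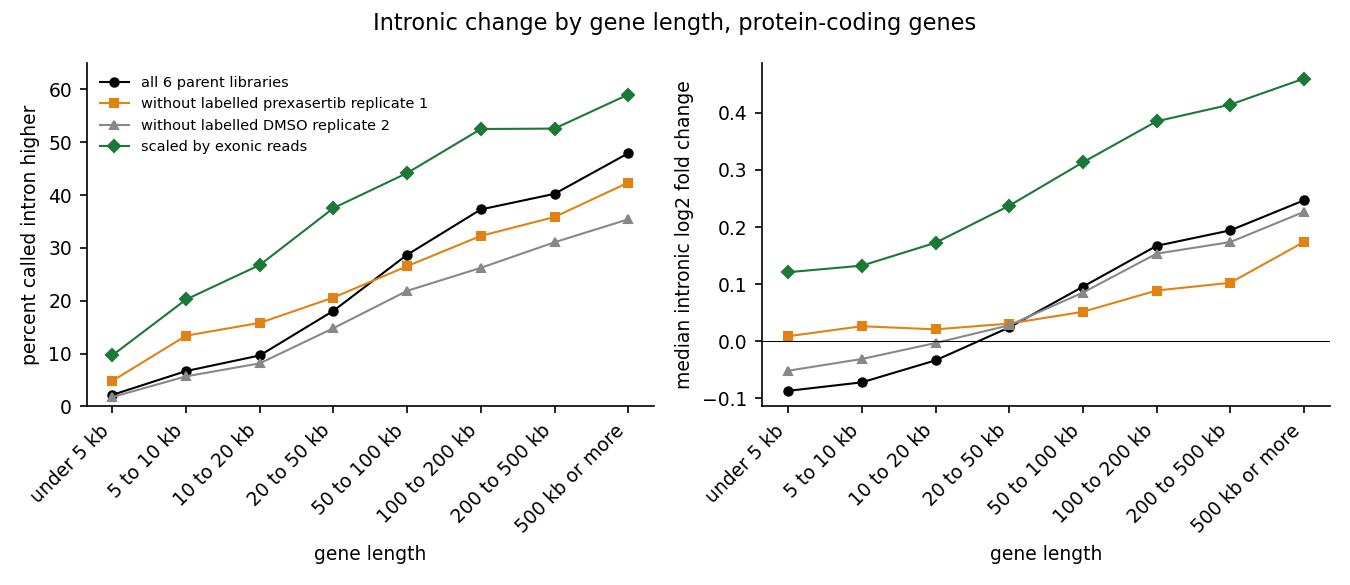
Percent of protein-coding genes called higher in introns (left) and median intronic log2 fold change (right), labelled prexasertib minus labelled DMSO, in 8 classes of gene length, for all 6 libraries, for 5 libraries (leaving out either replicate 1 of labelled prexasertib or replicate 2 of labelled DMSO) and for scaling by exonic reads. The shares end higher than they start in each of the 4 fits, from 2.2% to 47.9% with all 6 libraries.

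The changes in parent cells were compared with those in SLFN11-knockout cells by an interaction test, parent minus knockout. Its value was above 0 for 7.32% and below 0 for 9.53% of the 23045 genes. It was below 0 for 53 of 57 histone genes, 30 of 39 kinesin and spindle genes, 15 of 28 NF-kappaB genes, 13 of 20 EGR, NR4A, KLF and IER genes and 10 of 18 AP-1 genes. It was above 0 for 20 of 48 chaperone genes. AURKA differed by -0.95 between the lines, JUN by -2.36 and DUSP8 by -4.99. PLK1, at -0.08, did not pass (edgeR adjusted p = 0.54).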

How the data were processed

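RNA of 12 libraries was sequenced as 1 paired-end pool. Per the file headers, the deposited tables of the authors give read counts per gene, as raw counts of all, exonic and intronic reads and of reads in regions that overlap no other gene, with TPM computed by the authors from them. Per the submitters' processing notes, the build was hg19 and the tools, listed with no roles, were STAR 2.5.4a, Picard 2.9.2, Trimmomatic 0.39 and Trim Galore 0.6.2. The counter, its annotation and its strand setting are not given in the sources used here, so overlapping and antisense genes cannot be separated. Genes absent from a library's table were taken as 0, and 36 copies of genes on the Y chromosome were left out.

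Exonic counts were tested with edgeR 4.0.16 (R 4.3.3), by quasi-likelihood F tests with TMM factors, filterByExpr at a minimum count of 10, 4 group means over 12 libraries and Benjamini-Hochberg adjustment over all genes. A gene was called at an adjusted p of at most 0.05, and the SE of a log2 fold change was derived from its F value. Intronic counts, the exonic minus the intronic change and the interaction of line and treatment were tested alike. Alternatives used DESeq2 1.42.0 and limma 3.58.1. Tested on simulated data, the exonic fit over 22665 genes recovered 98% of 50 genes changed 2-fold and 74% of 50 changed 1.5-fold, with 9 false calls of 169. The intronic fit over 19538 genes recovered 82% of 50 genes changed 2-fold, and the fit of the difference over 17090 genes 84% of 50. The simulations changed far fewer genes than were called in the data. The genes scored as changed lay above 1 CPM and no library stood apart, so these rates may not hold for the data.

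Groups follow the record labels. The members and the 47 gene lists (1435 of 1553 genes tested) were chosen with earlier results of these data known. The rule for named genes took 12 genes per direction by fold change, 2 per list by p, 6 per direction by exonic minus intronic change, SLFN11, CHEK1 and 5 per direction by level at 2-fold. Other list members were named after their values were seen, and some items are not reported here. Promoters are from RefSeq (GRCh38.p14), matched by symbol, and coordinates of genes are from the files.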

Additional observations from a re-analysis of the deposited data

Results flagged for a closer look

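Of 122 genes that the naming rule took, 94 had a change that differed between parent and SLFN11-knockout cells by the interaction test (edgeR adjusted p at most 0.05). The difference, parent minus knockout on the log2 scale, was at least 1 in size for 41 of the 94. Over all 23045 genes it was called above 0 for 1686 (7.32%) and below 0 for 2197 (9.53%). In all 41 it was below 0 and the parent change was the larger one, by record label, and every sign turns if the library names hold. The naming rule took genes mainly by their change in parent cells, which favors a larger parent change. The one-sided count therefore does not describe genes at large. In 5 of the 41 (NR4A2, ARRDC3, DDIT3, ZP3 and BTG3) the fitted change in knockout cells had the opposite sign. It was small in these 5, from 0.08 for ZP3 to 0.17 for BTG3, and the knockout change itself was not tested.

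Among early regulators and phosphatases the difference was -4.99 for DUSP8, -2.99 for ATF3, -2.55 for NR4A2, -2.50 for NR4A3, -2.36 for JUN, -2.16 for DUSP10, -1.90 for DUSP16, -1.72 for KLF6, -1.41 for NR4A1 and -1.35 for ID1. In the knockout line DUSP8 averaged 3.002 CPM (labelled DMSO) and 1.83 CPM (labelled prexasertib), and JUN 94.2 and 53.7 CPM. In knockout cells the labelled DMSO level was below that of parent cells for DUSP8 (32.7 CPM in parent cells) and JUN (530.4 CPM). The same held for all other genes of the 41 except RHOB, which averaged 6.10 CPM in knockout and 3.02 CPM in parent cells. With labelled prexasertib, parent cells averaged 0.637 CPM of DUSP8 and 59.1 CPM of JUN. These differences in level between the lines were not tested.

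NF-kappaB genes and secreted or surface signals gave -2.49 for RELB, -2.04 for NFKB2, -1.33 for NFKBIA, -3.72 for IL8, -1.65 for CXCL3, -1.26 for TNFSF9, -2.56 for PDCD1, -1.38 for CD69, -2.56 for PLAU and -2.64 for ADAM8. IL8 was below 1 CPM in both knockout groups. The G protein regulator gene RGS16 gave -2.71, and the small GTPase genes RHOB and GEM gave -1.99 and -1.90.

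Growth arrest and stress genes gave -2.85 for CDKN1A, -2.15 for BTG2, -1.17 for BTG3, -1.69 for TXNIP, -1.56 for ARRDC3, -1.54 for DDIT3 and -1.02 for DNAJB2. CDKN1A averaged 6.79 and 6.55 CPM in the knockout groups. Cell cycle and histone genes gave -1.09 for CDC25C, -1.12 for E2F8, -1.78 for HIST2H2AA3, -1.76 for HIST2H2AA4, -1.42 for HIST1H2AC, -1.33 for HIST1H2AE, -1.27 for HIST1H2AL and -1.01 for HIST1H3D. Of the remaining genes, MXD1 gave -1.39, STX1A -1.34 and ZP3 -1.33. No explanation of these differences was tested. Groups of 3 libraries are too small for the check on single samples.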

How the results depend on the processing

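The alternatives were set together with the main fits, except the reads outside other genes for the exonic minus intronic change and the length classes under each intronic setting, which were chosen after seeing the data. With the 6 parent libraries left out one by one, genes higher in exons numbered 2924 to 4030 and genes lower 3689 to 4604 (4183 and 4191 with all). Without labelled DMSO replicate 1 the counts were 2924 and 4327, and without its replicate 2 they were 3030 and 4287. DESeq2 called 4135 and 4201. On log2(TPM + 1) with limma 6364 and 2505 were called, of which 4048 and 2464 were also called on counts, and on log2(TPM + 0.1) 6475 and 2510. Tested against a 1.5-fold change, 79 and 778 passed. The 259 genes at least 2-fold higher became 27 with TPM + 1, 35 at a mean CPM of at least 1, 115 with unique exonic reads and 97 to 379 when a library was left out, 97 without labelled prexasertib replicate 1. The 772 at least 2-fold lower became 448 with TPM + 0.1, 209 with TPM + 1 and 476 at a mean CPM of at least 1. Introns were higher for 5626 and lower for 1604 genes with the library sizes of the exonic counts, and higher for 1958 with only parent libraries. The exonic minus intronic change was above 0 for 308 and below for 4012 genes with those library sizes, above 0 for 617 with only parent libraries and for 825 to 1472 when a library was left out (825 without labelled DMSO replicate 2, 859 without its replicate 3). The interaction was above 0 for 954 to 2137 genes when a library was left out, 954 without labelled DMSO replicate 1. BEST1 was at -1.92 with unique exonic reads and ZNF286A at -0.62 with all gene reads, both opposite to the main sign. Of the values of named genes under the alternatives, 1999 kept direction and call, 60 lost the call, 7 gained it and 2 reversed, and 121 of 1034 list counts moved by over 1.5 times. The intronic share differed by 2.94 percentage points (1.57 to 3.74 when a library was left out). The causes were not tested. The correlations did not settle whether replicate numbers pair the samples. Same-numbered libraries correlated at 0.12, 0.023 and 0.053, and the other pairs at -0.094 to 0.038. The value of 0.038 joined replicate 2 of labelled DMSO to replicate 3 of labelled prexasertib. With a replicate block 4171 genes were higher and 4181 lower in exons (237 and 762 at least 2-fold), 3440 and 3438 in introns, and the interaction was above 0 for 1700 and below for 2160 genes. Depth of 47887791 to 72180494 reads leaves genes under 1 CPM imprecise, and intervals cover the scatter among 3 libraries only.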

Other observations

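Signaling lists outside the main groups held strong single members. Of 19 Notch, HES and ID genes, 5 were lower and 2 higher, with 5 and 4 on the log2(TPM + 1) scale. ID1 had 17.7, 21.5 and 21.3 CPM with labelled DMSO and 3.96, 3.68 and 5.28 CPM with labelled prexasertib. ID1, an inhibitor of E proteins, differed by -2.23 (SE 0.14, edgeR adjusted p = 2.8e-11), without overlap. Of 22 TGF-beta and SMAD genes, 8 were lower and 5 higher, and the inhibitor SMAD7 was at -2.26 and the corepressor SKI at -1.19. Of 18 circadian clock genes, 6 were higher and 3 lower, and the light-responsive PER1 was at -0.87. Of 46 histone demethylase, Polycomb and remodeler genes, 15 were higher and 10 lower, but 13 and 15 without labelled prexasertib replicate 1. The remodeler CHD2 was at -0.75.

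Immune recognition genes were divided. Of 42 interferon-stimulated genes, 15 were lower and 10 higher, with 8 and 14 on the log2(TPM + 1) scale. IRF7 was at -0.84. Of 27 MHC class I and NKG2D ligand genes, 11 were higher and 6 lower. The peptide trimmer ERAP1 was at 0.52, HLA-B at -0.59, and the NKG2D ligands MICA and ULBP1 at -0.98 and -0.79. Of 16 polyamine genes, 4 were higher and 4 lower (5 and 3 on the log2(TPM + 1) scale), with the spermidine synthase gene SRM at 0.72 and the catabolic gene SAT1 at -0.70. Of 18 tubulin genes, 5 were higher and 6 lower (6 and 4 on that scale), with TUBB at 0.45 and TUBB4B at -0.81. Of 22 nuclear noncoding transcripts, 3 were higher and 4 lower (7 and 2 on that scale, and 2 and 6 without labelled prexasertib replicate 1), with MIR17HG at 0.74. Mitochondrially encoded mRNAs were higher for 2 of 13 and lower for 0. Of the tested marker genes, 2 of 8 B-cell and myeloid ones were higher, and 0 of 6 epithelial, fibroblast and erythroid ones were called by edgeR. Values are by record label.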
